A study of Mus musculus with 24 samples.

Results

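Alpha-tubulin genes were measured in the nucleus accumbens (NAc) and the ventral tegmental area (VTA) of mice lacking the vitamin D receptor (Vdr-/-) and of wild-type mice. The set held 7 of the 30270 genes listed in the expression tables: the alpha-tubulins Tuba1a, Tuba1b, Tuba1c, Tuba4a and Tuba8, taken by symbol, and the pseudogenes Gm14150 (ENSMUSG00000082809.3) and Gm3756 (ENSMUSG00000091639.2), taken by identifier. The set was chosen for its pattern between the genotypes, so the genotype values of its members are a description and carry no test. RNA came from bilateral micropunches of frozen brain, taken 90 min after injection of phosphate-buffered saline (PBS) or of morphine sulfate at 5 mg/kg. Each genotype received each injection in 3 mice per region, which gave 24 libraries in 8 groups. The labels give libraries of both regions the same numbers, and a number is read here as 1 mouse. All mice were on a C57BL/6 background. The Vdr-/- mice, which lack the receptor in every tissue, were fed a chow enriched in calcium and lactose, so diet and genotype cannot be told apart. Ages and litters were not given in the sources used here, and p-values measure only the spread between these libraries.

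Alpha- and beta-tubulin form the dimers from which microtubules, the tracks of axonal transport, are built. Tuba1a is the chief alpha-tubulin of developing neurons, Tuba1b and Tuba1c are made in many dividing cells, Tuba4a is prominent in mature axons, and Tuba8 is known from heart, muscle and testis. Vdr encodes a nuclear receptor that regulates genes when vitamin D is bound. Processed pseudogenes such as Gm14150 and Gm3756 are copies of a spliced transcript that were inserted elsewhere in the genome.

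Libraries held between 9328726 and 30184426 reads on genes, with a median of 16779763. Levels that are set side by side over all libraries are given in RPM, the read count of a gene scaled to a library total of 1000000. Medium spiny neuron markers summed to 2464 to 5001 RPM in the NAc libraries and 261 to 322 in the VTA libraries, and dopamine neuron markers to 27.9 to 41.1 and 181 to 2816, which matched the labelled regions. One library stood apart, that of wild-type PBS mouse 2 from the NAc. Each library was set against the median of the other libraries of its region, over both genotypes and both injections. In the library that stood apart, this log2 difference fell with exon length (Spearman's rho −0.46 over 11537 genes, against −0.25 to 0.21 in the other 23 libraries). Vdr itself did not check the genotype labels, since it had 1 to 17 reads in wild-type libraries and 0 to 17 in Vdr-/- libraries, with medians of 5.5 and 6.

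The members fell into genes close to Vdr and genes elsewhere. On GRCm38, Vdr lies on the minus strand of chromosome 15 from 97854425 to 97910630. Tuba1b (98931425 to 98934565, minus strand), Tuba1a (98949837 to 98953703, minus strand) and Tuba1c (99029891 to 99038110, plus strand) follow it at distances of 1.02, 1.04 and 1.12 Mb. Tuba4a lies on chromosome 1 (75214228 to 75219865) and Tuba8 on chromosome 6 (121210696 to 121226854). Gm14150 is on chromosome 2 (151458956 to 151460309) and Gm3756 on chromosome 9 (31935446 to 31936800), and the annotation lists both as processed pseudogenes.

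The coding sequences of the 3 Tuba1 genes were nearly the same. Tuba1c was 98.0% identical to Tuba1b and 97.2% identical to Tuba1a, while Tuba4a and Tuba8 were 85.0 to 85.4% and 79.3 to 80.4% identical to the Tuba1 genes. Both pseudogenes were nearer to Tuba1b (98.6% for Gm14150 and 98.7% for Gm3756) than to Tuba1c (97.2% each), so they are not called Tuba1c copies here. A stretch of 101 bases, the length of 1 read, from GENCODE transcripts of release M21 shows why these genes are hard to count apart. It was picked as the first coding stretch with the fewest differences from Tuba1c, summed over Tuba1a, Tuba1b and the pseudogenes. It is therefore not a typical stretch. Capitals mark bases that differ from Tuba1c. In this stretch, bases 35 to 135 of the Tuba1c coding sequence (exonic, chr15:99034125-99034225, plus strand), Tuba1a, Tuba1b and Gm14150 had 0 differences from Tuba1c and Gm3756 had 1 (C83T, counted from the first base shown, Tuba1c base first).
Tuba1c: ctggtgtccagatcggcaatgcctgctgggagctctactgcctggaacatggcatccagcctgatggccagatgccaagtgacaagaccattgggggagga
Gm3756: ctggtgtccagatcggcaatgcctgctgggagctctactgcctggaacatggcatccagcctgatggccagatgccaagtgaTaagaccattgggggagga

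Read-length overlap between the members was wide. Of all 101-base words in its transcripts, Tuba1a shared 65.0% with another gene, Tuba1b 69.4%, Tuba1c 53.3%, Gm14150 54.1% and Gm3756 39.4%, whereas Tuba4a and Tuba8 shared 0%. Tuba1c shared 42.3% of its words with Tuba1b, 31.4% with Tuba1a, 18.4% with Gm14150 and 6.91% with Gm3756. The longest run identical to Tuba1c was 468 bases in Tuba1b, 446 in Tuba1a, 276 in Gm14150 and 166 in Gm3756, but 32 in Tuba8 and 29 in Tuba4a. The deposited counts left out reads that aligned to several places, so the levels of the 5 overlapping members rest on reads from the remaining stretches, and how reads were divided between them is uncertain. Reads were paired, so the share of fragments left out may differ from the share of words.

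**Figure D1:**
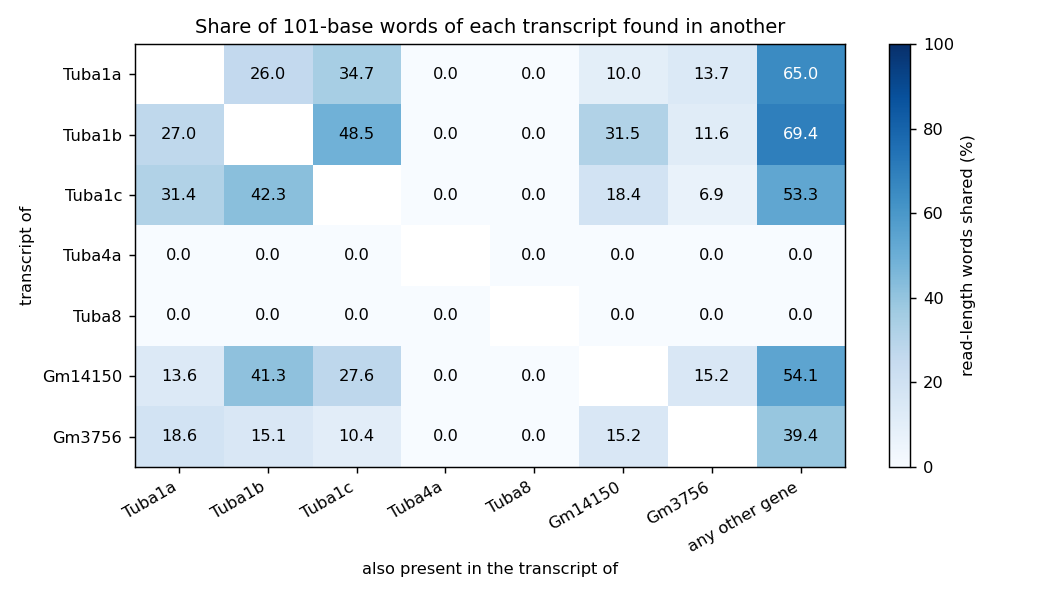
Percent of the 101-base words of each member (rows) found in the transcripts of another member or of any other gene (columns), printed in each cell and colored from 0 to 100%. Tuba1c shared 42.3% of its words with Tuba1b and 18.4% with Gm14150, and Tuba4a and Tuba8 shared 0%.

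Tuba1c was barely detected in wild-type mice and readily detected in Vdr-/- mice, in both regions and after both injections. In the NAc after PBS its normalized counts were 13.7, 15.7 and 14.4 in the wild-type libraries and 422, 394 and 383 in the Vdr-/- libraries, where a normalized count is the read count divided by the size factor of its library. After morphine they were 4.16, 4.24 and 6.45 in wild-type NAc and 384, 394 and 404 in Vdr-/- NAc. The groups did not come near each other, and the ratio of the means was 27.4-fold after PBS and 79.5-fold after morphine.

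The VTA gave the same picture at a higher level. Normalized Tuba1c counts after PBS were 12.4, 24.5 and 22.8 in wild-type VTA and 770.4, 876 and 738 in Vdr-/- VTA. After morphine they were 11.4, 11.1 and 10.4 in wild-type VTA and 672, 634 and 647 in Vdr-/- VTA. The ratios of the means were 40.0-fold and 59.4-fold, again without overlap. Each wild-type library rested on 5 to 25 Tuba1c reads and each Vdr-/- library on 269 to 1125. The ratios are therefore imprecise through the wild-type counts. In the NAc after PBS the ratio was 4.78 on the log2 scale, and 4.83 without wild-type mouse 2, the library that stood apart.

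**Figure D2:**
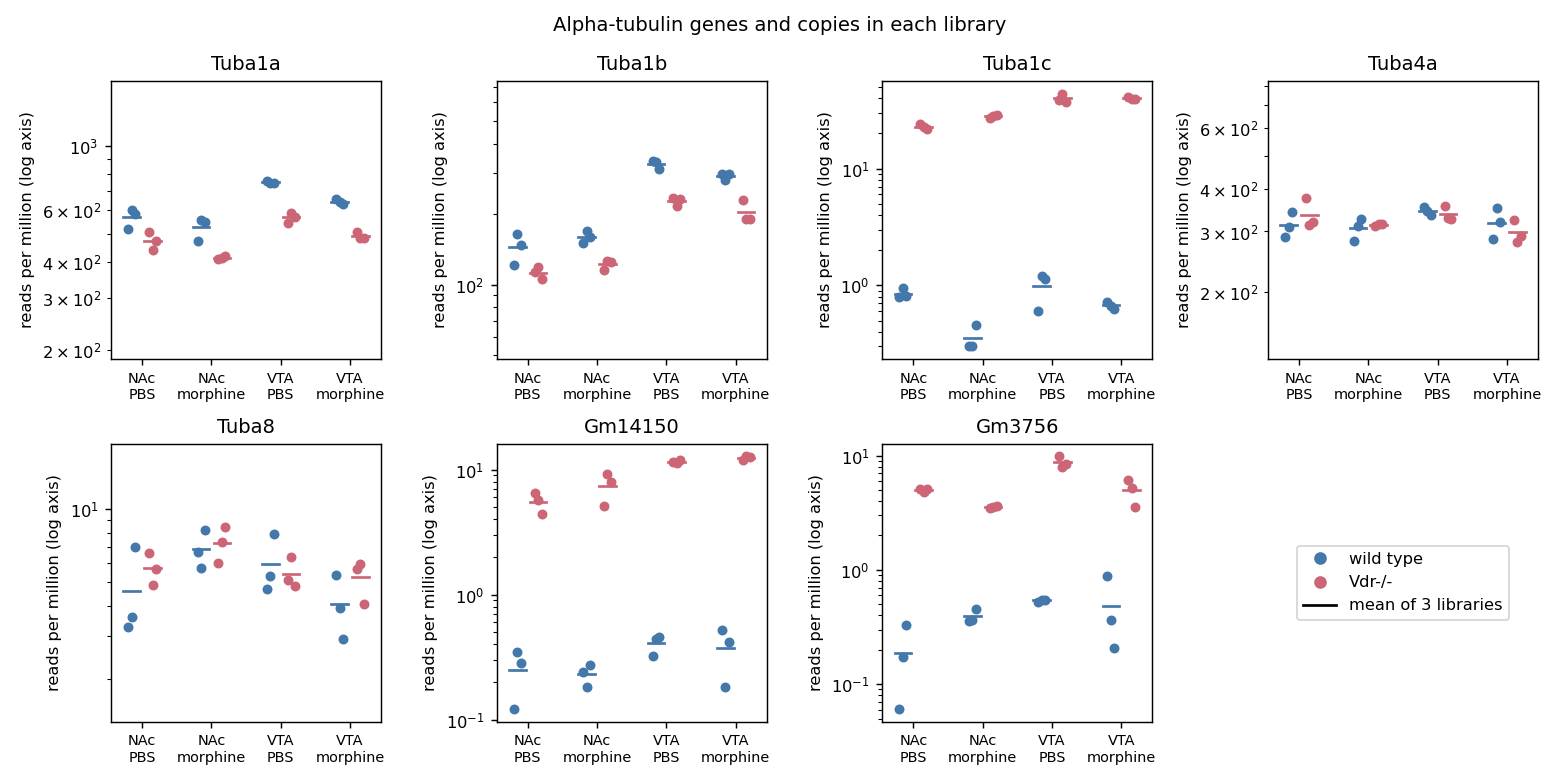
RPM (reads per library total of 1000000) of each member on a log axis of its own, by region and injection, with 1 point for each library, colored by genotype, and a line at the mean of 3 libraries. Tuba1c lay between 0.300 and 1.21 RPM in the 12 wild-type libraries and between 22.0 and 43.8 in the 12 Vdr-/- libraries.

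The pseudogenes showed the same direction. Gm14150 had normalized counts of 2.10, 5.71 and 5.03 in wild-type NAc after PBS and 114, 98.5 and 76.6 in Vdr-/- NAc, a 22.5-fold ratio. The ratio was 32.0-fold in the NAc after morphine, 28.2-fold in the VTA after PBS and 33.6-fold in the VTA after morphine. Its ranges were apart in all 4 settings, although wild-type libraries held only 2 to 10 reads against 74 to 359 in Vdr-/- libraries.

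Gm3756 had normalized counts of 1.05, 2.86 and 5.75 in wild-type NAc after PBS and 90.2, 83.1 and 88.6 in Vdr-/- NAc, a 27.1-fold ratio. Its ratio was 9.06-fold in the NAc after morphine, 15.9-fold in the VTA after PBS and 10.3-fold in the VTA after morphine. Single wild-type libraries moved these ratios: on the log2 scale the ratio went from 4.76 to 5.48 in the NAc after PBS without wild-type mouse 3, and from 3.37 to 4.08 in the VTA after morphine without wild-type mouse 1.0, so the order of the VTA ratios is not settled. For every 100 Tuba1c reads in Vdr-/- libraries there were 24.0 to 31.2 reads of Gm14150, as group means. Gm3756 had 21.9 and 22.0 reads per 100 Tuba1c reads in the Vdr-/- PBS groups of the NAc and the VTA, and 12.7 and 12.3 in the morphine groups. Beside Tuba1c, Gm3756 was thus lower in both morphine groups than in both PBS groups of Vdr-/- mice. Whether reads of the 3 genes came from 1 transcript or several was not tested.

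Tuba1a and Tuba1b, by far the more abundant of the Tuba1 genes, moved the other way and by much less. In the NAc after PBS, Tuba1a normalized counts were 9031, 10000.2 and 10269 in wild-type libraries and 8856, 7613 and 8194 in Vdr-/- libraries, which is 15.8% lower in the mean. The closest pair of libraries was thus only just apart. Tuba1a was 21.1% lower in the NAc after morphine, 25.2% lower in the VTA after PBS (14860.3 to 15382 in wild-type and 10849 to 11798 in Vdr-/- libraries) and 23.9% lower in the VTA after morphine.

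Tuba1b normalized counts in the NAc after PBS were 2104, 2722 and 2589.7 in wild-type libraries and 1988, 2061 and 1847 in Vdr-/- libraries, which is 20.5% lower in the mean. It was 23.4% lower in the NAc after morphine. In the VTA it was 31.2% lower after PBS, with 6210.3 to 6841 in wild-type and 4349 to 4692 in Vdr-/- libraries, and 30.5% lower after morphine. The genotypes did not overlap for either gene in any of the 4 settings.

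Tuba4a and Tuba8, which lie on other chromosomes and share no read-length word with the rest, overlapped between the genotypes in all 4 settings. Tuba4a group means in Vdr-/- mice were 0.932 to 1.09 times those in wild-type mice. Tuba8 had ratios of 0.901 to 1.29 on 42 to 173 reads a library.

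Read against all genes, 3 of 7 members (Tuba1c, Gm14150 and Gm3756) lay wholly higher in Vdr-/- libraries and 2 of 7 (Tuba1a and Tuba1b) wholly lower in each setting. The shares of all tested genes that lay wholly higher were 7.26% in the NAc after PBS, 6.08% in the NAc after morphine, 9.79% in the VTA after PBS and 7.07% in the VTA after morphine. Wholly lower were 9.68%, 7.39%, 10.7% and 7.45% in the same order. The members were chosen on this contrast, so nothing is read from these counts. In bulk tissue fewer cells of a type and less RNA per cell cannot be told apart.

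**Figure D3:**
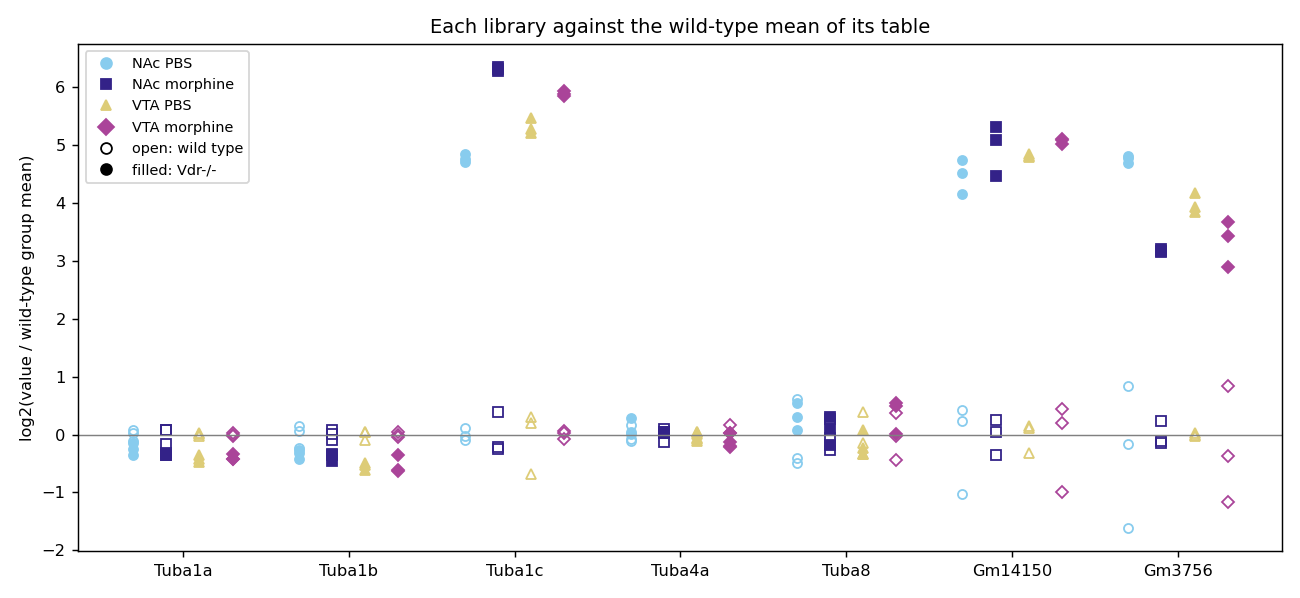
Log2 ratio of each library's normalized count to the wild-type group mean of its table, for each member in the 4 settings, with open symbols for wild-type and filled symbols for Vdr-/- libraries. The ratios of the group means lie between 3.18 and 6.31 for Tuba1c, Gm14150 and Gm3756, between −0.54 and −0.25 for Tuba1a and Tuba1b, and on both sides of 0 for Tuba4a and Tuba8.

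Cell type markers were set beside these values. Summed dopamine neuron markers in the VTA were 2262 to 2816 RPM in wild-type PBS libraries, 481 to 2143 in Vdr-/- PBS libraries, 181 to 515 in wild-type morphine libraries and 546 to 1096 in Vdr-/- morphine libraries. They were thus lower in Vdr-/- VTA after PBS and higher after morphine, without overlap. Summed oligodendrocyte markers in Vdr-/- NAc were 0.818 times the wild-type mean after PBS and 0.875 times after morphine, without overlap, and overlapped between the genotypes in the VTA. Of 10 marker lists, 3 did not overlap between the genotypes in the NAc after PBS, 1 in the NAc after morphine, 2 in the VTA after PBS and 1 in the VTA after morphine. Of the 5 blood markers 3 were found. None of the lists had a found marker at 0 in all libraries, and their part in the members' values was not tested.

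Per length, Tuba1c changed its place among the alpha-tubulins. In RPM per kilobase of exon, Tuba1a ranked first in all 8 groups, with group means from 229 to 415. Tuba1b ranked second in the VTA of both genotypes, ahead of Tuba4a. In the NAc the means of Tuba4a and Tuba1b were 90.8 and 60.1 in Vdr-/- mice after PBS and 84.9 and 65.1 after morphine, and their ranges overlapped in both wild-type groups. These levels divide by the full exon length, while 69.4% of the words of Tuba1b, 65.0% of those of Tuba1a and 53.3% of those of Tuba1c are shared against 0% for Tuba4a and Tuba8, so the order of Tuba4a against Tuba1b is not settled. Tuba1c held rank 4 of 7 in each Vdr-/- group, with means of 10.01 to 17.5 and no overlap with its neighbours. In wild-type mice it held ranks 5 to 7, with means of 0.155 to 0.431, and its range overlapped that of a neighbouring pseudogene in 3 of the 4 groups. Its share of the summed per-length level of the members was 0.0334 to 0.0776% in wild-type groups and 2.32 to 3.55% in Vdr-/- groups.

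In counted reads, the gain of the low members was smaller than the loss of the high ones. Reads that aligned to several places were left out, and the members share unlike parts of their sequence. These sums therefore do not weigh the members alike. Tuba1a and Tuba1b together were lower in Vdr-/- mice by 129 RPM in the NAc after PBS (713 in wild-type and 584 in Vdr-/- groups), 150 in the NAc after morphine, 279 in the VTA after PBS and 240.3 in the VTA after morphine. Tuba1c with the pseudogenes was higher by 32.1, 38.1, 58.2 and 56.0 RPM in the same order. Summed over the 7 members, Vdr-/- groups were 7.04% lower in the NAc after PBS, where the genotypes overlapped, and 10.4%, 16.0% and 16.2% lower in the other settings, where they did not.

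The response to morphine played no part in choosing the members and was tested with limma on log2(normalized count + 1), with Benjamini-Hochberg adjustment over all genes with a mean of at least 10. In Vdr-/- NAc, where 19.1% of 15820 genes passed an adjusted p of 0.05, 3 of 7 members passed. Tuba1a fell from 8091, 6949.6 and 7496 after PBS to 6343, 6384 and 6470.3 after morphine (log2 difference −0.23, SE 0.06, adjusted p = 0.0174 in limma). Tuba1c rose from between 350.4 and 386 after PBS to between 424 and 447 after morphine (0.26, SE 0.07, adjusted p = 0.0236 in limma). Gm3756 fell from a mean of 79.8 to 55.2 (−0.52, SE 0.14, adjusted p = 0.0226 in limma). Morphine and PBS libraries did not overlap for these 3 genes. The share of all genes without overlap was not counted for morphine, and 33.5% had an unadjusted p under 0.05 in limma, so nothing more is read from this. The other members had log2 differences of 0.08 (Tuba1b), −0.13 (Tuba4a), 0.30 (Tuba8) and 0.36 (Gm14150).

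These calls depended on the tool and on single libraries. DESeq2 called Tuba1a alone, with adjusted p = 0.0984 for Tuba1c and 0.125 for Gm3756, and edgeR called all 3, with adjusted p = 0.0184 for Tuba1a, 0.0238 for Tuba1c and 0.0208 for Gm3756. Leaving out 1 library left 3 members called without PBS mouse 8, 2 without PBS mouse 7, 1 without morphine mouse 2.0 or 2.2 and 0 without morphine mouse 2.1 or PBS mouse 9. Summed oligodendrocyte markers were 0.906 times and medium spiny neuron markers 0.648 times the PBS mean in the morphine libraries, and 5 of 10 marker lists did not overlap, a difference whose part in these values was not tested.

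No member passed in wild-type NAc, where 0.813% of 15749 genes did and 4 members reached the mean of 10. With a mean of at least 1, the log2 difference of Tuba1c was −1.17 (SE 0.33, adjusted p = 0.174 in limma), from a mean of 13.2 after PBS to 5.41 after morphine, on 44 and 15 reads summed over 3 libraries each. All 3 PBS libraries lay above all 3 morphine libraries, and the highest of them, at 14.3, was mouse 2, the library that stood apart. The unadjusted p of Tuba1c was 0.0067 in limma, and neither DESeq2 nor edgeR called it. The share of all genes without overlap was not counted here, and 16.6% of the 15749 genes had an unadjusted p under 0.05 in limma. Nothing more is read from this. Marker sums in the morphine libraries were 0.662 times the PBS mean for medium spiny neurons, 0.770 times for microglia, 1.19 times for astrocytes and 1.17 times for dopamine neurons, and these 4 of 10 lists did not overlap. Their part in the difference was not tested.

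In the VTA, no member passed in wild-type mice (3.65% of 16187 genes did) or in Vdr-/- mice (10% of 16364 genes did). The tables behind these tests held 2 PBS libraries in each genotype, without wild-type mouse 3 and Vdr-/- mouse 8. Tuba1a and Tuba1b had log2 differences of −0.26 (SE 0.07, adjusted p = 0.0830 in limma) and −0.23 (SE 0.06, adjusted p = 0.0840) in wild-type VTA. Both passed in DESeq2, and Tuba1a passed with all libraries included (adjusted p = 0.0311 in limma). In Vdr-/- VTA, Gm3756 went from a mean of 169 to 91.8 (−0.91, SE 0.23, adjusted p = 0.0515 in limma) and Tuba1a from 10336 to 9094 (−0.18, SE 0.05, adjusted p = 0.0644 in limma). DESeq2 called both, edgeR called Gm3756, and the fit with all libraries called Tuba1a. Tuba1c there had a log2 difference of 0.08 (SE 0.06). Marker sums used all 3 PBS libraries of each genotype, unlike these tests. Dopamine neuron markers in the morphine libraries were 0.128 times the PBS mean in wild-type VTA, without overlap. In Vdr-/- VTA they were 0.604 times, with overlap. Oligodendrocyte markers were 0.616 and 0.702 times, without overlap. Of 10 marker lists, 7 in wild-type VTA and 3 in Vdr-/- VTA did not overlap. The part of the markers in the morphine differences was not tested.

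**Figure D4:**
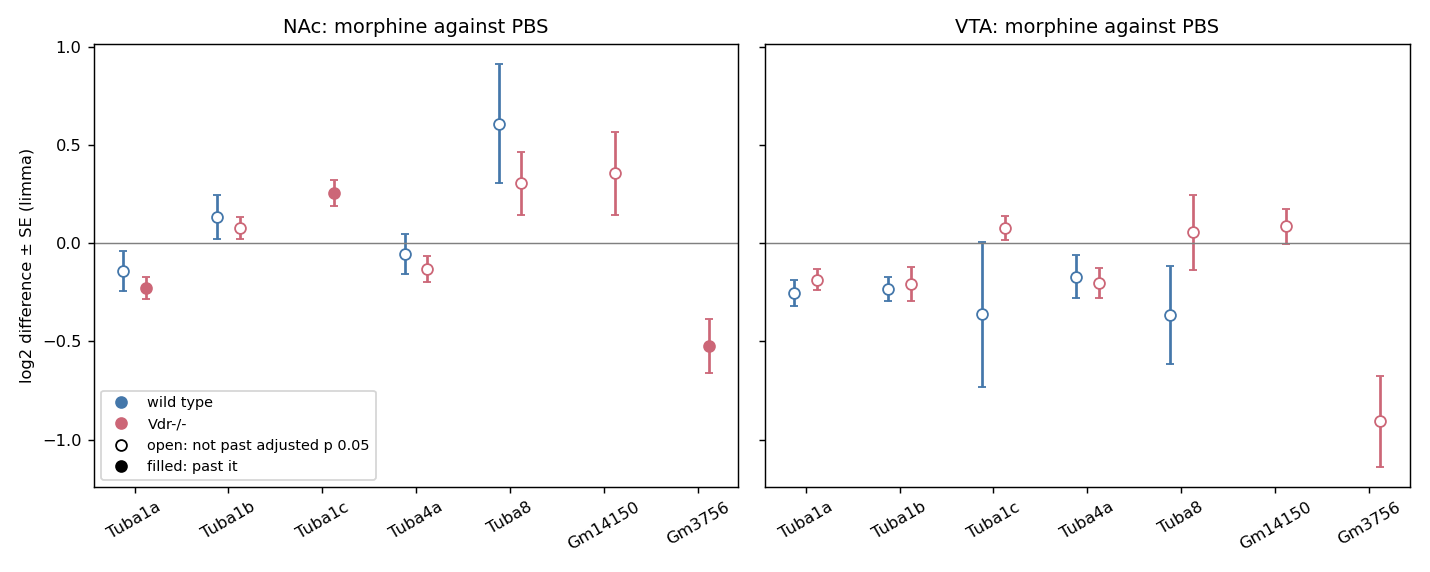
Log2 difference of morphine against PBS with its standard error for each tested member, by region and genotype, with filled points for members past an adjusted p of 0.05 in limma. In Vdr-/- NAc Tuba1a (−0.23) and Gm3756 (−0.52) lie below 0 and Tuba1c (0.26) above.

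The morphine difference of Tuba1c was set against the genotype directly. In the NAc it was −1.17 in wild-type and 0.26 in Vdr-/- mice, and the difference between them was 1.42 on the log2 scale (SE 0.22). Across all 15788 genes no gene passed (0%, with 916 at an unadjusted p under 0.05), and the adjusted p of Tuba1c was 0.396 in limma. Tuba1c entered this test through its level in Vdr-/- mice, and its wild-type part rests on the 44 and 15 reads above. In the VTA the Tuba1c difference was 0.44 (adjusted p = 0.612 in limma). No member passed in the VTA, where 0.0553% of genes did.

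Regions were compared with the mouse number as a block. Of the 7 members, 5 differed between the NAc and the VTA, where 71.5% of 16147 genes did. Tuba1b had the largest difference, with a median of 125 RPM in the NAc and 257 in the VTA and a lower value in the NAc in 12 of 12 mice (log2 difference −0.89, SE 0.06, adjusted p = 5.42e-09 in limma). Tuba1a was lower in the NAc in 12 of 12 mice (−0.24, SE 0.04, adjusted p = 4.81e-05 in limma), and Gm14150 in 12 of 12 by RPM, of which wild-type morphine mouse 1.1 was a tie with 3 reads in each region (−0.70, SE 0.12, adjusted p = 8.12e-05 in limma). Tuba1c was lower in the NAc in 11 of 12 mice (−0.51, SE 0.11, adjusted p = 0.000461 in limma) and Gm3756 in 10 of 12 (−0.63, SE 0.21, adjusted p = 0.0151 in limma). The pseudogenes entered this fit through their level in Vdr-/- mice. A wild-type library held 2 to 10 reads of Gm14150, 1 to 17 of Gm3756 and 5 to 25 of Tuba1c. The regional values of these 3 members are therefore a description and say little about wild-type mice.

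Tuba4a, with medians of 315 RPM in the NAc and 328 in the VTA, and Tuba8, with 6.32 and 5.22, did not pass (adjusted p = 0.526 and 0.106 in limma). For the region by genotype term, all 7 members had an adjusted p of 0.9998 in limma. No gene was called (0%), and 552 had an unadjusted p under 0.05. Whether the regional difference of a member depends on genotype is therefore not settled. Gm14150 and Gm3756 entered this fit through their level in Vdr-/- mice, and Tuba1c had few wild-type reads. The terms of these genes are a description. For Tuba1c the term was −0.13 (SE 0.22) and for Tuba1b 0.18 (SE 0.12).

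**Figure D5:**
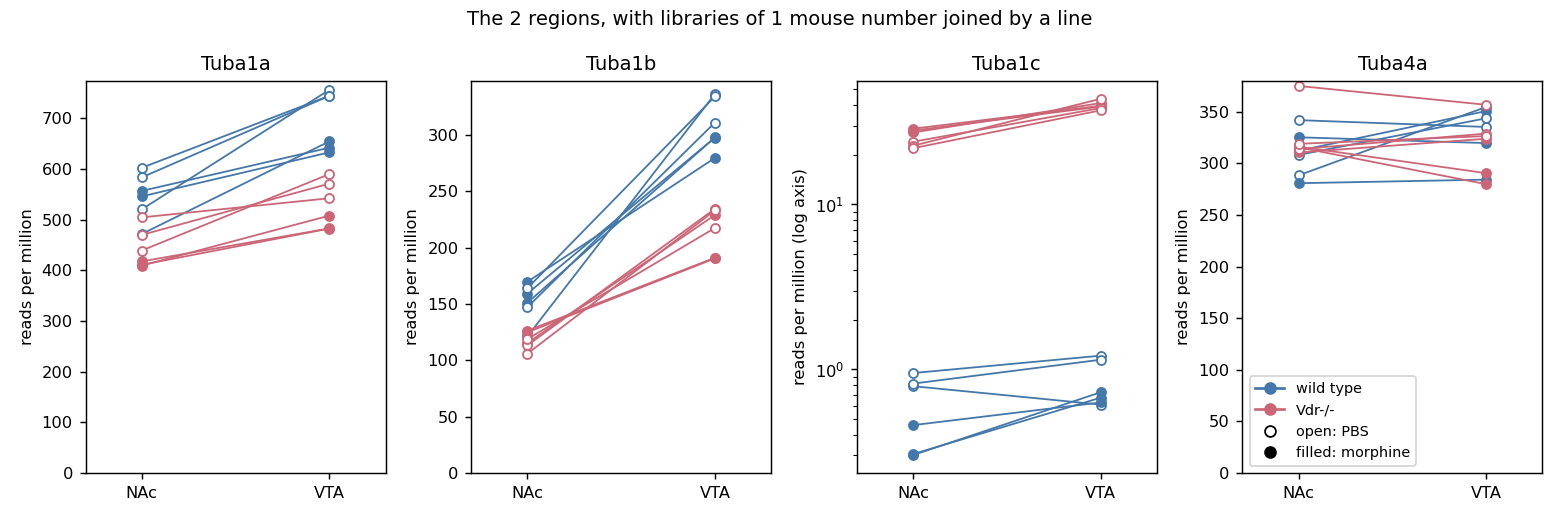
RPM of Tuba1a, Tuba1b, Tuba1c and Tuba4a in the NAc and the VTA, with a line joining the libraries of both regions that carry the same mouse number, colored by genotype, open after PBS and filled after morphine, on axes from 0 but for the log axis of Tuba1c. Tuba1a and Tuba1b are lower in the NAc in 12 of 12 mice, Tuba1c in 11 of 12 and Tuba4a in 7 of 12.

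Partners of alpha-tubulin did not pass between the genotypes. Of 76 listed beta-tubulins and other tubulins, chaperones and folding factors, enzymes that modify alpha-tubulin, and microtubule-binding and motor proteins, 73 were in the tables and 70 or 71 were tested. None was called in any of the 4 genotype comparisons in limma, where 0.069%, 0.192%, 0.39% and 0.0624% of all genes were (NAc after PBS and morphine, then VTA after PBS and morphine). At an unadjusted p under 0.05 there were 7, 7, 17 and 5, or 10%, 10%, 23.9% and 7.14% of those tested, against 8.94%, 7.73%, 14.2% and 8.77% of all genes. Nothing more is read from these shares. DESeq2 called Kif5a and Kif5b, motors of axonal transport, lower in Vdr-/- VTA after PBS. The medians of the log2 difference were 0.01, 0.01, −0.03 and −0.06, against 0.01, 0.00099, −0.0017 and 3.5e-05 over all genes. The most abundant partners were Map1b and the kinesins Kif5a and Kif1a, with 793 to 3314, 2047 to 3121 and 1787 to 2692 RPM.

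With morphine, 9 of 70 partners passed in Vdr-/- NAc, or 12.9% against 19.1% of all genes. The chaperonin subunit Cct4 rose (log2 difference 0.23, adjusted p = 0.00907 in limma), as did the beta-tubulin Tubb2b (0.23, adjusted p = 0.0105) and the dendritic protein Map2 (0.24, adjusted p = 0.0186). The beta-tubulin Tubb4a fell (−0.24, adjusted p = 0.0121 in limma), as did the glutamylase Ttll7 (−0.19, adjusted p = 0.0282), the prefoldin subunit Pfdn5 (−0.20, adjusted p = 0.0283) and 3 others. Leaving out 1 library gave 1 to 7 called partners, with 1 left without PBS mouse 9. Cct4 passed in all 6 of these fits, while Ttll7 and Pfdn5 were each lost in 4 and Map2 in 3. In Vdr-/- VTA 6 of 71 passed, or 8.45% against 10% of all genes. Of these, Cct4, Camsap1 and Dclk1 rose by 0.24, 0.27 and 0.35 and Tubb4a, Sirt2 and Map7 fell by 0.50, 0.38 and 0.31 on the log2 scale. Leaving out 1 library gave 0 to 8. There were 0 when morphine mouse 2.2 or PBS mouse 7 was dropped, 1 when PBS mouse 9 was dropped and 2 when morphine mouse 2.1 was dropped. Cct4 was lost in all 5 of these fits and Tubb4a, Sirt2 and Camsap1 in 4 each. Tubb4a and Sirt2 are known to be abundant in oligodendrocytes. Summed oligodendrocyte markers in the morphine libraries were 0.906 times the PBS mean in Vdr-/- NAc and 0.702 times in Vdr-/- VTA. Neither pair of ranges overlapped. The VTA sums used all 3 PBS libraries, unlike the VTA tests. The part of these markers in the partner differences was not tested. None passed in wild-type NAc or VTA in limma. Without wild-type PBS mouse 2 there were 2 in the NAc, and without wild-type morphine mouse 1.1 there were 17 in the VTA, where DESeq2 called 6. Neither region was tested for a difference between genotypes over this list.

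Genes around Vdr were examined because the Tuba1 genes lie there. Besides the members and Vdr itself, 90 annotated genes lay within 2 Mb of Vdr. Of these, 55 to 61 were tested in each genotype comparison, and 1, 1, 1 and 2 were called in the order above, which is 1.69%, 1.82%, 1.64% and 3.33% beside 0.069%, 0.192%, 0.39% and 0.0624% of all genes. Olfr286 (ENSMUSG00000090129.9, named Olfr287 in release M21, chromosome 15 from 98206971 to 98221056), an olfactory receptor gene, was lower in Vdr-/- mice in all 4. Its normalized counts were 37.1 to 42.1 in wild-type and 0 to 1.85 in Vdr-/- NAc after PBS (log2 difference −4.48, SE 0.45, adjusted p = 0.0290 in limma) and 148 to 175 against 27.4 to 36.7 in the VTA after PBS (−2.31, SE 0.16, adjusted p = 0.00138 in limma). After morphine the log2 differences were −4.20 in the NAc and −2.78 in the VTA. The call in the NAc after PBS was lost without wild-type mouse 1 or 3 or Vdr-/- mouse 8 or 9.

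The amino acid transporter gene Slc38a2 (chromosome 15 from 96687392 to 96699730), on the other side of Vdr from the Tuba1 genes, was called in 1 of the 4 comparisons, higher in Vdr-/- VTA after morphine (0.54, SE 0.06, adjusted p = 0.0300 in limma). That call was lost without any 1 of 4 of its 6 libraries, namely wild-type mouse 1.0 or 1.2 or Vdr-/- mouse 2.1 or 2.2. The most abundant neighbours, Arf3, Faim2 and Ddn, had overlapping ranges over the 12 libraries of each genotype.

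The genes whose level ran most like that of Tuba1c over the 24 libraries were named by Pearson's r of log2(RPM + 1) among 16147 genes, with the members left out of the naming. The libraries share genotype and region, so r is a description. The highest were Rpl3-ps1 (r = 0.97), Gm3226 (0.93), Gm5620 (0.86), A730060N03Rik (0.86) and Wdfy1 (0.83). Gm3226 and Gm5620 are further Tuba1b-like sequences, 98.2% and 97.9% identical to its coding sequence. Gm3226 had 0.530 to 2.22 RPM in wild-type and 3.86 to 11.4 in Vdr-/- libraries and shared 800 of its 1242 read-length words with members. The other 3 shared 0 words with them, and Rpl3-ps1 had 3.67 to 5.27 RPM in wild-type and 18.2 to 40.8 in Vdr-/- libraries. The lowest r was found for Gm15446 (−0.99), Mid1 (−0.92) and Nudt3 (−0.91), and Gm15446 had 24.6 to 31.7 RPM in wild-type and 0 to 0.483 in Vdr-/- libraries.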

How the data were processed

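RNA was sequenced as 101-base read pairs from a directional kit. Per the labels and the study's methods, the authors trimmed reads with Trimmomatic 0.36, aligned them to GRCm38 with STAR 2.4.2a after base calling with CASAVA 1.8, and counted reads per gene. The deposited signal is the read count divided by a DESeq2 size factor, in 8 tables of 2 groups. From these the whole reads were recovered (100% of values within 0.01 of a whole number). Libraries were grouped by the labels. Morphine, interaction, region and list comparisons used limma 3.58.1 in R 4.3.3, two-sided, on log2(value + 1) with a table mean of at least 10 and Benjamini-Hochberg adjustment at 0.05. Values of the interaction came from each library's own table. Region fits used recovered reads scaled over all libraries, with the mouse number as a block: the labels repeat each number in both regions, read here as the same animal, which no source used here states, and deviations of same-numbered libraries correlated by −0.079 to 0.22 over 12 numbers. Pseudocounts of 0.5 and 5, a mean of at least 1, edgeR 4.0.16, DESeq2 1.42.0, other windows around Vdr and leaving out each library were tried. Sequences and positions came from GENCODE M21, which held 99.8% of the identifiers. Tuba1a and Tuba1c differ there in version from the files.

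The members and lists were chosen with earlier results of these data known. The text names every member, Vdr, at most 6 called genes of each list and comparison by smallest p, the 3 most abundant of each list, and the 5 highest and 3 lowest correlations with Tuba1c. No replicate pair of libraries agreed within sampling noise (chi-square per degree of freedom 3.99 to 34.5 over 24 pairs).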

Additional observations from a re-analysis of the deposited data

Results flagged for a closer look

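The genotype by morphine difference of Tuba1c in the NAc was picked out by its p-value in an exact permutation of injection within genotype. That p was 0.005, the smallest its 400 arrangements allow, and it made the choice, so nothing more is read from it. In the VTA the signs were also opposite (−0.36 in wild-type and 0.08 in Vdr-/- mice), and the permutation gave p = 0.21. The NAc difference was 1.42 on the log2 scale, with −1.17 in wild-type and 0.26 in Vdr-/- mice. It did not pass adjustment over all genes (adjusted p = 0.396 in limma). Leaving out 1 library at a time gave 1.33 to 1.60, and the value passed adjustment in 1 of 12 such fits, without wild-type morphine mouse 1.2. Tuba1c reached the mean of 10 only through its level in Vdr-/- libraries, so the value is a description, and the wild-type libraries held 44 Tuba1c reads in all after PBS and 15 after morphine.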

How the results depend on the processing

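Of 466 refits under another pseudocount, filter, tool, window or library set, 437 were classed as unchanged, as were 741 of 850 fits without 1 library. A value classed as unchanged could still move. Called partners with morphine in Vdr-/- NAc were 9 as reported and 1 to 7 in the 6 fits without 1 library, of which 3 were classed as changed. With the mouse left out as a block (no replicate block), 5 members differed between regions and 0 by region and genotype, the same counts as with it. The regional values of Tuba1c, Gm14150 and Gm3756 remain a description, since they rest on few wild-type reads.

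Called Vdr neighbours in the NAc after PBS went from 1 to 0 at a pseudocount of 0.5 and to 2 in DESeq2 (with Col2a1), in the NAc after morphine to 2 at a mean of at least 1 (with Rpap3), in the VTA after PBS to 2 in DESeq2 (with Gpd1), and in the VTA after morphine to 1 within 1 Mb and 3 in DESeq2. Called partners went from 0 to 2 by genotype in the VTA after PBS (DESeq2), and with morphine in wild-type VTA to 6 (DESeq2) and 8 (all libraries). Called members with morphine went from 3 to 1 in Vdr-/- NAc (DESeq2), from 0 to 2 (DESeq2) and 1 (all libraries) in wild-type VTA, and from 0 to 2 (DESeq2), 1 (edgeR) and 1 (all libraries) in Vdr-/- VTA. Tuba8 in Vdr-/- VTA went from 0.055 to −0.062 with all libraries, and the region by genotype term of Gm3756 from 0.18 to −0.087 at a pseudocount of 5. The cause was not tested.

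Without 1 library, called neighbours ranged from 0 to 1 in the NAc after PBS, 1 to 5 in the VTA after PBS (5 without Vdr-/- mouse 8) and 1 to 3 in the VTA after morphine. The Tuba1c genotype difference in the NAc after morphine ranged from 6.20 to 6.55. Called partners with morphine ranged from 0 to 2 and 1 to 7 in wild-type and Vdr-/- NAc and from 0 to 17 and 0 to 8 in the VTA, and called members from 0 to 3 in Vdr-/- NAc, 0 to 2 in wild-type VTA, 0 to 4 in Vdr-/- VTA (4 without morphine mouse 2.0) and 0 to 1 for the NAc interaction. Signs turned for morphine in Tuba4a in wild-type NAc (−0.11 to 0.024), Tuba1c in wild-type VTA (−0.82 to 0.10) and Tuba8 in Vdr-/- VTA (−0.042 to 0.22), for the NAc interaction in Tuba1b (−0.13 to 0.055) and Tuba4a (−0.16 to 0.011), for the VTA interaction in Tuba1b (−0.066 to 0.072), Tuba1c (−0.022 to 0.90), Tuba4a (−0.13 to 0.054) and Gm14150 (−0.14 to 0.46), and for region by genotype in Tuba1c (−0.25 to 0.039), Tuba8 (−0.039 to 0.36) and Gm3756 (−0.13 to 0.51). Within these ranges, Tuba4a in wild-type NAc was 0.0088 without morphine mouse 1.0, Tuba8 in Vdr-/- VTA −0.014 without morphine mouse 2.0, the VTA interaction of Tuba4a 0.019 without Vdr-/- mouse 2.1 and −0.10 to 0.041 without Vdr-/- mouse 9 or 7, and region by genotype of Tuba8 −0.037 without mouse 2.2 and 0.24 without mouse 8, and of Gm3756 0.24 without mouse 7. None of these results had passed the threshold. Depth limits Tuba1c and the pseudogenes in wild-type mice, where a library held 1 to 25 reads of each.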

Other observations

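Other genes share read-length words with the members. Besides Gm3226 and Gm5620, the tables held Gm17383, Gm6682, Gm7172 and Gm15599. Gm17383, which shared 543 words with Tuba1a and 473 with Tuba1b, had 0.545 to 2.79 RPM in wild-type and 0.750 to 3.06 in Vdr-/- libraries, so its ranges overlapped. Gm6682 overlapped over both regions (0.284 to 0.853 in wild-type and 0.107 to 1.69 in Vdr-/- libraries), but within the VTA it had 0.284 to 0.853 in wild-type and 0.885 to 1.69 in Vdr-/- libraries. Gm7172 overlapped as well (0.493 to 1.34 and 0.389 to 1.57), and Gm15599 was at or near 0 throughout. Gm5620 had 0.163 to 0.627 in wild-type and 0.550 to 1.56 in Vdr-/- libraries, and the genotypes did not overlap within either region. Of the 6 further listed genes that share words with the members, Gm3226 alone had ranges fully apart over both regions together. Another such gene, Gm49450, was not among the listed genes, so it has no level here. It shared 529 words with Tuba1a, 528 with Tuba1b and 450 with Tuba1c.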
